A study of Homo sapiens with 8 samples.

Results

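The vorinostat experiment set 2 microarrays of HCT116 cells treated with SAHA against 2 microarrays of cells given vehicle control, which are 4 of the 8 arrays in the series, and the arrays were taken by the group names in their titles. HCT116 is an established human colorectal carcinoma line of epithelial origin. SAHA (suberoylanilide hydroxamic acid, vorinostat) was given at 2 µM and RNA was taken after 10 h, the same time as for the vehicle control. The other 4 arrays held cells treated with Largazole or FK228, both at 20 nM. They shared in the estimate of the spread, the filter on levels, the choice of each gene's probe set and the level quintiles. Apart from that they entered a comparison at the end. All groups were the same line at 1 time and 1 dose per compound, and the labels name no genetic change, so the data describe an early response in 1 tumour line. The labels speak of duplicates without saying whether these came from separate cultures, so the p-values reflect how far these samples spread, and that spread may be technical only.

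SAHA is a hydroxamic acid that binds the zinc in the catalytic pocket of class I and class IIb histone deacetylases, the enzymes that take acetyl groups off lysines of histones and of many other proteins. Histone acetylation is associated with open chromatin, and deacetylases sit in corepressor complexes as well as on transcribed genes, so inhibitors of this class are known to raise some transcripts and lower others. Vorinostat is used as a drug for cutaneous T-cell lymphoma, and in colon cancer lines such inhibitors are known for raising the cyclin-dependent kinase inhibitor p21, encoded by CDKN1A.

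Levels are log2 signals of probe sets, the sets of short probes on the array that together read a transcript. Array medians lay between 4.47 and 4.51, Pearson's r across probe sets, which are no independent replicates, was 0.996 within each of the 2 groups, and it was 0.981 to 0.982 between a SAHA array and a vehicle array. A probe set was tested if its second-highest level among the 8 arrays was at least 4.49, the median over all probe sets and arrays, which left 13381 of 19775 named genes, each represented by its brightest probe set. A level under 4.49 is near background, so the size of a change that starts or ends there is uncertain. The 5 epithelial markers EPCAM, CDH1, KRT8, KRT18 and KRT19 were all tested, with levels between 9.41 (CDH1) and 12.83 (KRT18) with vehicle, and their summed level was 58.9 on the vehicle arrays and 60.2 to 60.3 on the SAHA arrays. Of the 5, CDH1 and KRT19 (0.47 ± 0.080, mean over both probe sets 0.28) were called higher. Of 7 leukocyte markers on the array 1 was tested and 0 were called, with a summed level of 25.1 to 25.7 on the vehicle arrays and 25.6 to 26.3 on the SAHA arrays, and of 8 markers of fibroblasts and endothelium 4 were tested and 1 was called.

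SAHA changed close to as many genes as it left uncalled. At an adjusted p under 0.05 (limma's moderated test, Benjamini-Hochberg over all tested probe sets), 6339 of the 13381 genes were called, or 47.4%, with 2963 higher (22.1%) and 3376 lower (25.2%). Most changes were small: 574 genes rose at least 2-fold (4.29%) and 753 fell at least 2-fold (5.63%), 71 rose and 111 fell at least 4-fold, and 13 rose and 16 fell at least 8-fold. Both SAHA arrays lay outside the range of the vehicle arrays at 9769 genes, which is 73% of those tested, and this held for all called genes. The smallest two-sided p of an exact permutation test is 0.333 with 2 arrays a group, and single genes were not tested that way. In a culture of 1 line measured in bulk, fewer cells of a kind and less RNA per cell cannot be told apart.

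The share of rises and falls differed with the level of the gene. In the lowest quintile of genes by mean level over the 8 arrays, 9.11% were called higher and 13.0% lower. In the middle quintile these shares were 26.1% and 33.4%, and in the highest quintile 27.1% and 21.9%, the only quintile in which more genes rose than fell. Falls of at least 2-fold made up 9.68% of the quintile above the lowest and 1.35% of the highest quintile, against 4.45% and 3.06% for rises of that size. Changes of at least 2-fold were thus rarer in the highest quintile than in any other.

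**Figure D1:**
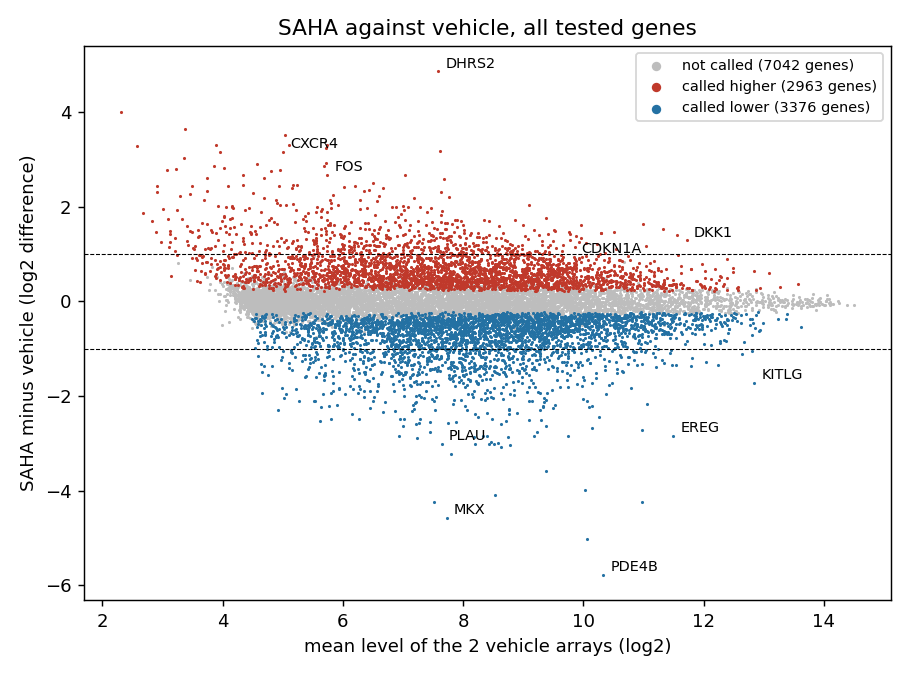
Each point is 1 of the 13381 tested genes, with the mean log2 level on the 2 vehicle arrays on the horizontal axis and SAHA minus vehicle as a log2 difference on the vertical axis. Dashed lines mark 2-fold. The cloud narrows toward high levels, and of the labelled genes DHRS2 starts from 7.59, PDE4B from 10.34 and EREG from 11.5.

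DHRS2, a short-chain dehydrogenase/reductase, was the largest rise, and CDKN1A rose by under 2-fold. The log2 level of DHRS2 was 7.7 and 7.47 with vehicle and 12.49 and 12.42 with SAHA, a rise of 4.87 ± 0.10 (SE, n = 2 arrays a group, adjusted p = 1e-06, limma), or 29.2-fold. For CDKN1A the levels were 9.82 and 9.86 with vehicle and 10.73 and 10.85 with SAHA, a rise of 0.95 ± 0.091 (adjusted p = 0.000137), or 1.93-fold. PDE4B, a phosphodiesterase that breaks down cAMP, was the largest fall, with 10.35 and 10.32 with vehicle and 4.54 and 4.56 with SAHA (-5.78 ± 0.12, adjusted p = 1e-06). In all 3 genes the arrays of the groups were far apart compared with the gap within a group.

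The start regions of 4 genes are shown because they belong to the largest rise, to the best known target of this drug class and to 2 of the larger falls, with 1 start each in the RefSeq promoter table (GRCh38.p14). Each runs 5′ to 3′ from 250 bases before to 50 bases after the transcript start: DHRS2 at chr14:23629865-23630164 on the plus strand, CDKN1A at chr6:36678464-36678763 on the plus strand, EREG at chr4:74364895-74365194 on the plus strand and ZBTB2 at chr6:151391510-151391809 on the minus strand. Capitals mark matches on the printed strand to the GC box with the letters GGGCGG. They also mark the CCAAT box, and likewise the TATA box, whose letters are TATAAA.
DHRS2: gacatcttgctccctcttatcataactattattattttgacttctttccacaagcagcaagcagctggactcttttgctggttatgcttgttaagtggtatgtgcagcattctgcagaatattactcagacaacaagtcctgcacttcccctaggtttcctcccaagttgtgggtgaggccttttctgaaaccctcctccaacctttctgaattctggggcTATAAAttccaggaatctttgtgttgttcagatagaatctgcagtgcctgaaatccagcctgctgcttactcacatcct
CDKN1A: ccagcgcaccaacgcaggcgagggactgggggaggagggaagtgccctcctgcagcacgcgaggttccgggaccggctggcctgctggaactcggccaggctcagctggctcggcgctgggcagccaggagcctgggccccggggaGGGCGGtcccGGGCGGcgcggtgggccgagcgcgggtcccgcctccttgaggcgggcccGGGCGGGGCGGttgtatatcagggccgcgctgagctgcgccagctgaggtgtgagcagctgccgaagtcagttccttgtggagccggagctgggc
EREG: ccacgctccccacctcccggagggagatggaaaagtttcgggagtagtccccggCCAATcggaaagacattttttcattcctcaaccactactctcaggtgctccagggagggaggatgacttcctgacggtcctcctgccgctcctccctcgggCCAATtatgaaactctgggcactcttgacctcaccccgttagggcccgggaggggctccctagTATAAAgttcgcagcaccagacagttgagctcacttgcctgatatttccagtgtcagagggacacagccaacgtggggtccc
ZBTB2: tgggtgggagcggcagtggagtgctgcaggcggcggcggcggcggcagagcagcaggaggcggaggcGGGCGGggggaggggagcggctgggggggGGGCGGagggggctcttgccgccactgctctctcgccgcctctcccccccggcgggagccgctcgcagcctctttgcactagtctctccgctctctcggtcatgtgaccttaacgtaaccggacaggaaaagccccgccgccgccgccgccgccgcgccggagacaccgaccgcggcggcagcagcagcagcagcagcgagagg
DHRS2, the largest rise, has a TATA box, 0 GC boxes and 44% G and C. CDKN1A has 4 GC boxes, of which the last pair overlaps, and 74.3% G and C. EREG, which encodes the EGF family ligand epiregulin and fell by 2.84 on the log2 scale, has 2 CCAAT boxes and a TATA box, and ZBTB2, a zinc finger repressor that fell by 2.89, has 2 GC boxes and 75% G and C. GC-rich starts with GC boxes and starts with a TATA box thus occur among these rises and among these falls.

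Over all promoters of genes that changed at least 2-fold, the widest gap of the 5 motifs searched was in the CCAAT box. On either strand it stood in 45.4% of 707 promoters of genes called higher at least 2-fold, in 26.4% of 1025 promoters of genes called lower at least 2-fold, in 34.5% of the 15593 promoters of all tested genes and in 34.6% of all 35116 promoters of the table. A TATA box (TATAAA) was present in 11% of the promoters of rises and 8.20% of those of falls, against 6.46% over tested genes. The GC box (GGGCGG) was about as common in both (67.2% and 61.9%, against 65.0%), as was the share of G and C (medians of 65.7% and 65.0%, against 64.7%). The cAMP response element TGACGTCA was found in 3.54% of the promoters of rises and 1.07% of those of falls, against 2.70%, and the E-box CACGTG in 6.65% and 9.46%, against 9.16%. These are counts of letters in fixed windows, a gene can have several promoters, and no test was run on them.

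Below the 10 largest changes, the next rises included genes of cell movement and signalling. CYRIA, an inhibitor of the RAC1 to actin pathway, stood at 3.81 and 4.09 with vehicle and 7.06 and 7.17 with SAHA, so that it went from near background to a middle level on both arrays (3.16 ± 0.11). CXCR4, the receptor for the chemokine CXCL12, stood at 4.98 and 5.03 with vehicle and 8.29 and 8.03 with SAHA (3.16 ± 0.11). TENT5C, a poly(A) polymerase, rose by 2.92 ± 0.099, DOCK4, an exchange factor for small GTPases, by 2.92 ± 0.085, DNER, a neuronal ligand of Notch receptors, by 2.78 ± 0.12 and ARRDC4, an alpha-arrestin, by 2.68 ± 0.11. CRISPLD2, a secreted glycoprotein, rose by 2.87 ± 0.098, though its mean over both probe sets was 1.63, and PMEPA1, a membrane protein that inhibits TGF-beta signalling, by 2.82 ± 0.15 (mean over its probe sets 1.69). SYT11, a vesicle-trafficking synaptotagmin, went from 3.22 to 6.02, COXFA4L3, a small mitochondrial protein, from 3.08 to 5.85, and CPM, a membrane-bound carboxypeptidase, from 4.33 to 7.01, all 3 from vehicle levels under 4.49. Adjusted p was at most 0.000213 (CPM, limma) for these rises.

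Below the 10 largest falls, the next ones included several secreted and surface proteins. PLAU, the urokinase that activates plasminogen, stood at 7.55 and 7.73 with vehicle and 4.67 and 4.59 with SAHA (-3.01 ± 0.14). TFPI, the inhibitor of the tissue factor pathway of clotting, stood at 8.59 and 8.43 with vehicle and 5.59 and 5.42 with SAHA (-3.01 ± 0.10). LIF, a cytokine of the interleukin-6 family, stood at 8.1 and 8.25 with vehicle and 5.3 and 5.32 with SAHA (-2.86 ± 0.14), so on both SAHA arrays all 3 lay far under both vehicle arrays. IL27RA, a cytokine receptor chain, fell by 3.0, NTSR1, the neurotensin receptor, fell by 2.87, SLC16A14, a member of the monocarboxylate carrier family, fell by 2.97 and KRT23, a type I keratin, fell by 2.84. Among nuclear proteins, ZBTB1 fell by 2.84, the LIM domain protein TRIP6 fell by 2.84 and NRIP1, a corepressor of nuclear receptors, fell by 2.85. SAMD13 was at -3.02. ZMYND8, a reader of histone marks, was at -3.01 ± 0.20, but without those probe sets that are named _x_at or _s_at another one stood for it at 0.049, and its mean over 4 probe sets was -1.56. The largest adjusted p was 3.1e-05 (ZMYND8, limma) for these falls.

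Few genes crossed the whole range from background to clear signal. Only 3 genes had both vehicle arrays under 4.49 and both SAHA arrays at or above 6.87, the 75th percentile of all values: SNAI2, the transcriptional repressor Slug, CYRIA, and TNFRSF19, a TNF receptor family member. SNAI2 stood at 3.65 and 3.1 with vehicle and 6.98 and 7.06 with SAHA and TNFRSF19 at 3.81 and 3.97 with vehicle and 7.3 and 7.08 with SAHA, although the mean over both TNFRSF19 probe sets was 1.63 and 1 of them had this sign. The reverse held for 4 genes, all of them for nuclear proteins. MKX, a homeobox repressor, stood at 7.76 and 7.69 with vehicle and 3.13 and 3.18 with SAHA, EHF, an ETS factor of epithelial cells, at 8.53 and 8.52 with vehicle and 4.4 and 4.48 with SAHA and ZBED2, a zinc finger factor, at 7.44 and 7.6 with vehicle and 3.14 and 3.42 with SAHA. The fourth was ZBTB2, at 7.21 and 7.24 with vehicle and 4.35 and 4.32 with SAHA. For EHF the mean over 2 probe sets was -2.43, against -4.09 for the brighter of them.

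Among the 1339 genes with the highest vehicle levels (at or above 10.5), changes of 2-fold or more included cytoskeletal, stress and secreted proteins. DNAJB1, a heat shock protein 40 cochaperone, stood at 10.99 and 11.01 with vehicle and 12.58 and 12.69 with SAHA (1.63 ± 0.083). TUBA1A, an alpha tubulin, stood at 11.33 and 11.32 with vehicle and 12.95 and 12.76 with SAHA (1.53 ± 0.10). SAT1, which acetylates polyamines, rose by 1.4 ± 0.082, TUBB2A, a beta tubulin, by 1.18 ± 0.084 and ISG15, a ubiquitin-like protein induced by interferon, by 1.1 ± 0.087. ZNF503 was at 1.46 ± 0.11, with a mean over 3 probe sets of 0.53. Of the abundant transcripts that fell, KITLG, the ligand of the receptor KIT, stood at 12.85 and 12.82 with vehicle and 11.14 and 11.1 with SAHA (-1.72 ± 0.094). MALL, a lipid raft protein, fell by 2.71, PHLDB2, which anchors microtubules at the cell edge, fell by 2.18, the glutamine carrier SLC38A1 fell by 1.84, the ceramide synthase CERS2 fell by 1.52, the lamin LMNB1 fell by 1.49 and GTF3C6, a subunit of the polymerase III factor TFIIIC, fell by 1.48. These calls had adjusted p of at most 5.8e-05 (ISG15, limma).

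Genes were then grouped into families by symbol. Of the 765 tested genes in the families of transcription factors, 176 rose (23%) and 244 fell (31.9%), with a median difference of -0.052, against -0.019 over all genes tested. Of 350 genes for secreted proteins 76 rose (21.7%) and 57 fell (16.3%), with a median of 0.019. Of 891 genes for surface and membrane proteins 196 rose (22%) and 202 fell (22.7%), with a median of 0.012. So the transcription factor families had more falls than the 25.2% of all genes, and the secreted families fewer, with near-background shares of rises in all 3 classes. Families differed more than classes did, as the bars by family show. Counts of a family below are to be read beside 22.1% higher and 25.2% lower over all genes tested. Neither classes nor families were matched for level, with which the shares of calls differed.

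**Figure D2:**
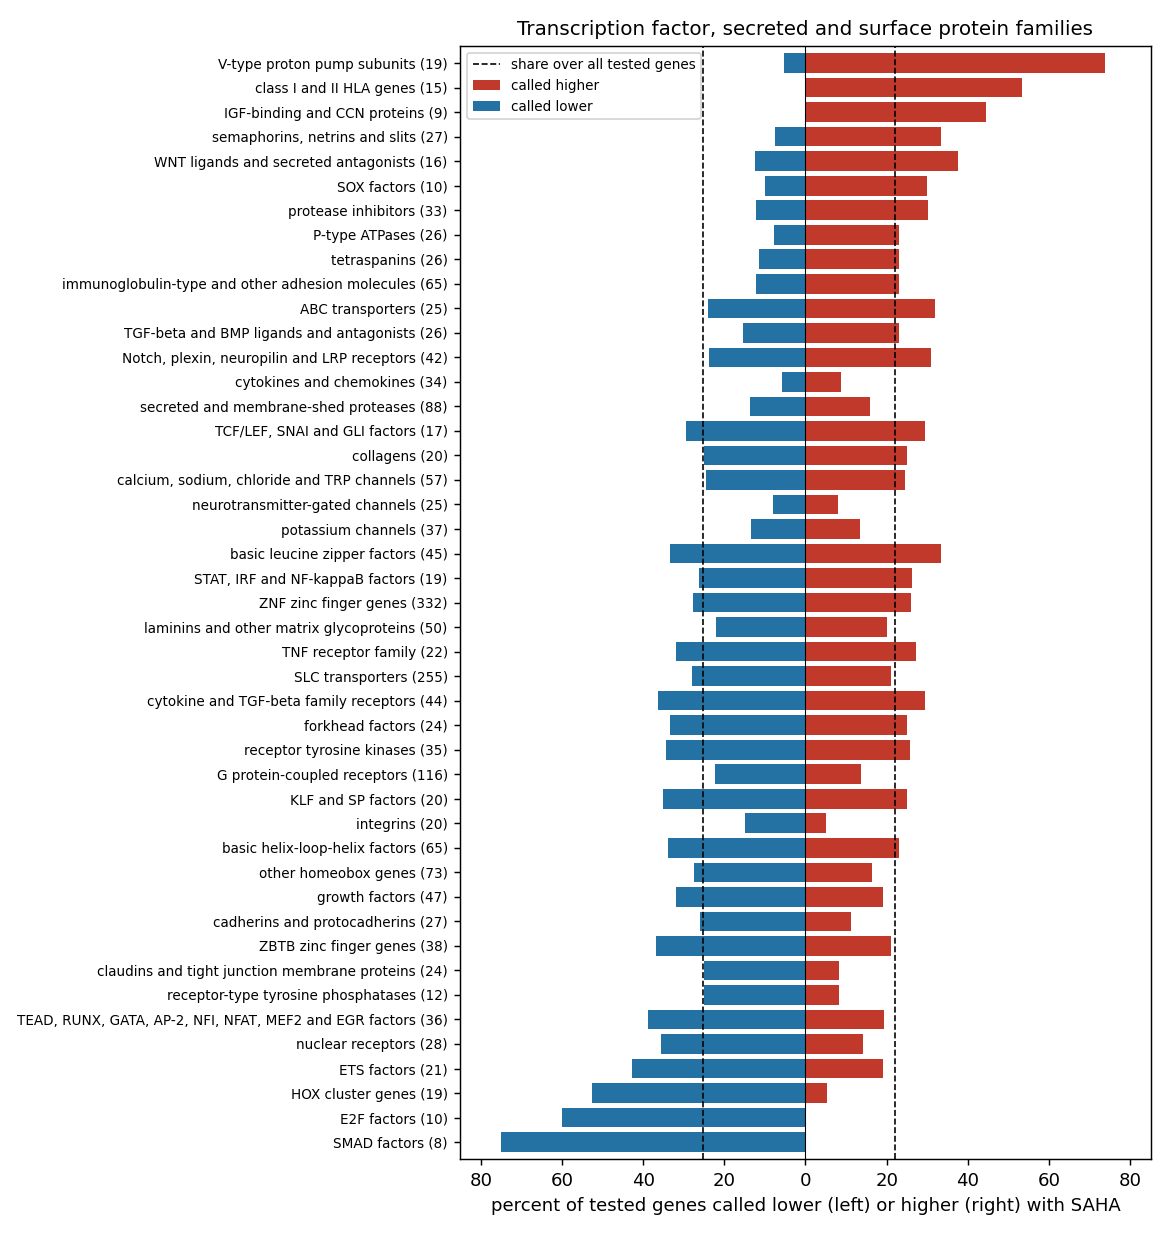
Bars give the percent of the tested genes in each family (number in parentheses) that were called higher (red, right) or lower (blue, left) with SAHA, and dashed lines mark 22.1% and 25.2%, the shares over all tested genes. Families are ordered by percent higher minus percent lower. SMAD, E2F and HOX families lie at the bottom with 75%, 60.0% and 52.6% called lower, and the V-type proton pump lies at the top with 73.7% called higher.

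The HOX genes, homeobox factors that hold positional identity along the body and gut, had 10 falls and 1 rise among 19 tested, with a median difference of -0.61. In the HOXB cluster 7 of 9 tested genes fell, 0 rose and the median was -1.17, while in the HOXC cluster 3 of 8 fell. HOXB8 stood at 8.8 and 8.75 with vehicle and 5.67 and 5.82 with SAHA (-3.03 ± 0.19, adjusted p = 2.2e-05, limma), HOXB6 at 7.1 and 7.34 with vehicle and 4.74 and 4.52 with SAHA (-2.59 ± 0.16). HOXC6 stood at 8.7 and 8.73 with vehicle and 6.06 and 6.31 with SAHA (-2.53 ± 0.23, adjusted p = 0.000107). On both SAHA arrays these 3 lay under both vehicle arrays by more than 2 log2 units. HOXB7 (level 9.9 with vehicle) fell by 1.74, HOXB9 fell by 1.43, HOXB4 fell by 0.95 and HOXB5 fell by 0.93, whereas HOXD8 rose by 0.75 ± 0.11. HOXB13, the most posterior gene of its cluster, was not called (0.080, adjusted p = 0.456). The mean over both HOXB9 probe sets was -0.93. Among 73 other homeobox genes 12 rose and 20 fell, with IRX4 (-1.89) among the falls and the chromatin organizer SATB1 (1.29) and ISL1 (1.04) among the rises.

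In the SMAD and E2F families falls outnumbered rises. SMADs carry the signal of TGF-beta and BMP receptors to the nucleus, and 6 of the 8 tested fell and 0 rose, with a median of -0.71. SMAD1, which acts for BMP receptors, stood at 9.44 and 9.1 with vehicle and 7.46 and 7.2 with SAHA (-1.94 ± 0.18). SMAD3, which acts for TGF-beta receptors, stood at 8.53 and 8.54 with vehicle and 7.01 and 7.09 with SAHA (-1.48 ± 0.098). The inhibitory SMAD7 fell by 1.19, to 4.27, near background, while SMAD4, the partner of both branches, was not called (-0.14, adjusted p = 0.504). E2F factors regulate genes of DNA synthesis, some as activators and some as repressors. Of 10 tested E2F and TFDP genes 6 fell and 0 rose, with a median of -0.48. E2F5 fell by 1.28, E2F8 fell by 1.13, E2F2 fell by 0.81 and E2F3 fell by 0.81, whereas E2F1 was not called (-0.050, adjusted p = 0.745). FOXM1, a forkhead factor of the G2/M genes, fell by 1.06, among 24 forkhead genes of which 6 rose and 8 fell, and FOXO1, which acts downstream of insulin signalling, rose by 1.07. For the calls named, adjusted p was up to 0.00156 (E2F5, limma).

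The basic helix-loop-helix and basic leucine zipper factors moved in both directions. Of 65 helix-loop-helix genes 15 rose and 22 fell (14 without vehicle replicate 2), and of 45 leucine zipper genes 15 rose and 15 fell. HEY1, a repressor downstream of Notch, stood at 5.19 and 4.89 with vehicle and 8.49 and 8.65 with SAHA (3.52 ± 0.12). MXD1, which competes with MYC for MAX, stood at 5.14 and 4.46 with vehicle and 7.72 and 7.39 with SAHA (2.75 ± 0.22). The 2 vehicle arrays of MXD1 differed by more than those of HEY1. The circadian activator CLOCK (-1.52) and the circadian repressor BHLHE40 (-1.82) fell. FOS, the AP-1 subunit, stood at 5.72 and 5.76 with vehicle and 8.34 and 8.5 with SAHA (2.68 ± 0.088), while its relatives FOSL1 (-1.73) and JDP2 (-2.16 ± 0.31) fell, as did CEBPD (-1.75), an inflammatory factor. JUN was at 1.18, or 0.76 from another probe set when those named _x_at or _s_at were left out. Adjusted p was at most 0.000928 (JDP2, limma).

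Of 28 nuclear receptors, transcription factors that bind steroids, retinoids or lipids, 4 rose and 10 fell. NR3C2, the mineralocorticoid receptor, stood at 4.86 and 4.92 with vehicle and 7.08 and 7.01 with SAHA (2.16 ± 0.080). NR2F1, an orphan receptor of development, stood at 10.41 and 10.12 with vehicle and 7.98 and 7.66 with SAHA (-2.45 ± 0.17). NR4A3, an immediate-early orphan receptor, rose by 1.57 ± 0.13, and PPARD, a fatty acid receptor, by 1.13 ± 0.13 (mean over 4 probe sets 0.73). NR1D2, a circadian repressor, fell by 1.07, PPARG fell by 0.98, and HNF4G fell by 2.1, to 3.17. RXRA, a partner of the PPAR receptors, fell by 0.88, with a mean over 2 probe sets of -0.54. The largest adjusted p was 0.00474 (NR1D2, limma).

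STAT, IRF and NF-kappaB factors, which relay cytokine and interferon signals, were near the background. Of 19 genes 5 were higher and 5 lower (26.3% each, against 22.1% and 25.2% of all genes). STAT3 stood at 9.07 and 8.93 with vehicle and 10.72 and 10.49 with SAHA (1.61 ± 0.11). IRF7, the regulator of type I interferon genes, stood at 5.93 and 5.9 with vehicle and 7.83 and 8.07 with SAHA (2.04 ± 0.12). STAT6, which acts for interleukin-4 and interleukin-13, stood at 8.55 and 8.43 with vehicle and 6.42 and 6.48 with SAHA (-2.04 ± 0.086). NFKB1, the p105/p50 subunit, stood at 8.24 and 8.56 with vehicle and 5.98 and 6.11 with SAHA (-2.36 ± 0.18). Of the other NF-kappaB subunits, REL rose by 0.82, and RELA (-0.050, adjusted p = 0.652) and RELB (-0.32, adjusted p = 0.154) were not called. These calls had adjusted p of at most 0.000273 (REL, limma).

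Factors of epithelial and other lineages also went both ways. Of 21 ETS factors 4 rose and 9 fell. ETS1 rose by 1.34 ± 0.16, and ELF4 fell by 1.27 and ETS2 fell by 0.81. ETV7 was called higher (2.45) from a vehicle level of 2.9, with 1 of its 2 probe sets of this sign and a mean of 1.02. In the mixed group of TEAD, RUNX, GATA, AP-2, NFI, NFAT, MEF2, EGR and grainyhead genes, 7 of 36 rose and 14 fell. Of the tested grainyhead genes GRHL1, GRHL2 and GRHL3, whose factors act in epithelial identity, GRHL1 and GRHL2 moved in opposite directions. GRHL1 stood at 8.09 and 7.95 with vehicle and 9.57 and 9.5 with SAHA (1.52 ± 0.10). GRHL2 stood at 8.14 and 8.16 with vehicle and 7.04 and 6.93 with SAHA (-1.17 ± 0.083). GATA3 rose by 1.81 ± 0.097, or by 0.92 from another probe set, and TFAP2C by 1.32 ± 0.13. GATA3 is a marker of other epithelial lines, of which 5 of 7 were tested and only GATA3 was called, with a summed level of 38.0 to 38.2 on the vehicle arrays and 39.2 to 39.5 on the SAHA arrays. The nuclear factor I genes NFIC, at 10.17 and 9.96 with vehicle and 8.03 and 7.88 with SAHA (-2.11 ± 0.10), and NFIB (-1.78, mean over 6 probe sets -1.14) fell. Of 17 TCF/LEF, SNAI and GLI factors 5 rose and 5 fell (3 without SAHA replicate 2 or without vehicle replicate 2). TCF7L2, the main Wnt effector of the gut, fell by 0.89. Of 20 KLF and SP factors 5 rose and 7 fell (3 without vehicle replicate 1, 4 without SAHA replicate 2), with SP4 at 0.99 and SP1, the GC box-binding factor, at -0.75. Of 10 SOX factors 3 rose, SOX8 by 0.99 and SOX2 by 1.7 from 3.99 (mean over 2 probe sets 1.02), and SOX12 fell by 1.0.

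The large zinc finger families were close to the background. Of 332 ZNF genes 86 rose (25.9%) and 92 fell (27.7%), with a median of -0.019. ZNF557 rose by 1.7 ± 0.11 and ZNF468 by 1.54 ± 0.22, and ZNF114 fell by 2.22, to 3.41. Of 38 ZBTB genes, whose proteins often recruit deacetylase corepressors, 8 rose and 14 fell. ZBTB18 stood at 6.7 and 6.49 with vehicle and 8.83 and 8.81 with SAHA (2.22 ± 0.11). ZBTB1 stood at 8.32 and 8.35 with vehicle and 5.44 and 5.56 with SAHA (-2.84 ± 0.12). ZBTB43 rose by 1.0, and ZBTB20 fell by 1.69, and it was at -2.66 from another probe set without those named _x_at or _s_at. For the calls named, adjusted p was up to 0.000866 (ZNF468, limma).

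**Figure D3:**
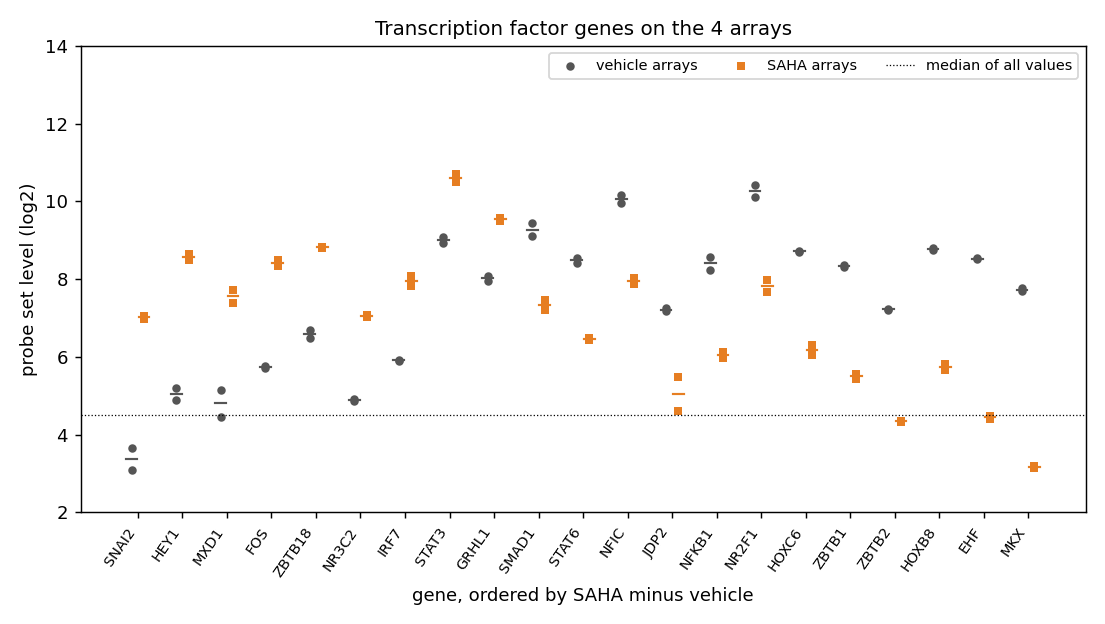
Log2 levels of 21 transcription factor genes on the 2 vehicle arrays (circles) and the 2 SAHA arrays (squares), with group means as short lines, ordered from the largest rise to the largest fall. The dotted line is the median of all values, 4.49. ZBTB2, EHF and MKX end under the line.

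Among secreted ligands, 15 of 47 growth factors fell and 9 rose (5 without SAHA replicate 1 or without vehicle replicate 1), with a median of 0.013. Ligands of the EGF receptor family included EREG, at 11.71 and 11.29 with vehicle and 8.88 and 8.43 with SAHA (-2.84 ± 0.21), and BTC (betacellulin), which fell by 2.04 to 2.99, whereas HBEGF rose by 0.70 (mean over 3 probe sets 0.46). FGF19, the ileal hormone that limits bile acid synthesis, stood at 8.11 and 8.03 with vehicle and 5.89 and 6.36 with SAHA (-1.95 ± 0.15). PDGFA fell by 1.38, PDGFC fell by 1.32 and ADM, the vasodilator adrenomedullin, fell by 1.04. Stanniocalcin STC1, a calcium and phosphate hormone, stood at 4.34 and 3.77 with vehicle and 6.11 and 6.01 with SAHA (2.0 ± 0.16), rising from near background, and ANGPTL4, an inhibitor of lipoprotein lipase, rose by 1.32 ± 0.13. Of 34 cytokine and chemokine genes only 3 rose and 2 fell, and LIF was the largest change. TNFSF9, the ligand of 4-1BB, rose by 1.22 ± 0.11, and CXCL8 (interleukin-8) by 1.17 ± 0.11 from 3.88. Adjusted p was at most 0.00164 (HBEGF, limma).

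Among modulators of growth factor and Wnt signalling rises outnumbered falls, in families of 9 to 27 tested genes. Of 9 IGF-binding and CCN proteins 4 rose and 0 fell. IGFBP3, the main carrier of insulin-like growth factors, stood at 3.58 and 3.13 with vehicle and 6.28 and 6.5 with SAHA (3.04 ± 0.15, mean over 2 probe sets 1.92). CCN2 (connective tissue growth factor) stood at 3.95 and 3.77 with vehicle and 6.67 and 6.8 with SAHA (2.87 ± 0.10), both from near background. CCN1, a YAP and TEAD target, rose by 0.72 ± 0.087, and IGFBP6, with a vehicle level of 9.24, was not called (-0.066). Of 16 Wnt ligands and secreted antagonists 6 rose and 2 fell. The antagonist DKK1, an abundant transcript, stood at 11.79 and 11.65 with vehicle and 13.02 and 13.0 with SAHA (1.29 ± 0.087). DKK4 stood at 4.04 and 4.3 with vehicle and 6.24 and 6.08 with SAHA (1.99 ± 0.14). Among ligands WNT10B fell by 0.55. WNT4 was at 1.65 from 3.66, but its other probe set, used without those named _x_at or _s_at, gave 0.037 (adjusted p = 0.881), and the mean of both was 0.84. Of 26 TGF-beta and BMP ligands and antagonists 6 rose (23.1%, near the 22.1% of all genes) and 4 fell (15.4%). GDF11 was at 1.19, BMP4 at -1.29 ± 0.14 and the stress cytokine GDF15 at -0.76. Of 27 semaphorins, netrins, slits and related guidance cues 9 rose and 2 fell, with SEMA6A at 5.71 and 5.71 with vehicle and 7.14 and 7.38 with SAHA (1.55 ± 0.11), SLIT2 at 0.86 and SEMA4C at -1.7.

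Matrix genes moved in both directions, at shares near those of all genes (22.1% higher and 25.2% lower). Of 50 laminins and other matrix glycoproteins 10 rose (20%) and 11 fell (22%), and of 20 collagens 5 rose (25%) and 5 fell (25%). The collagen counts were small and moved with single arrays: 3 rose without SAHA replicate 2 or without vehicle replicate 2, while 2 fell without either of these, 1 fell without vehicle replicate 1, and 3 fell where a gene's probe sets were averaged. THBS1 (thrombospondin 1), which activates latent TGF-beta, stood at 5.37 and 4.98 with vehicle and 7.86 and 7.4 with SAHA (2.46 ± 0.19). FN1 (fibronectin) stood at 7.02 and 6.86 with vehicle and 8.1 and 8.17 with SAHA (1.2 ± 0.13). VCAN (versican), a large proteoglycan, fell by 1.54, LOXL1, which crosslinks elastin, fell by 1.24 and COL9A3 fell by 0.96. COL1A1, the called fibroblast marker, stood at 7.25 and 7.0 with vehicle and 7.97 and 7.73 with SAHA (0.73 ± 0.15, mean over 4 probe sets 0.42), while COL1A2 and COL3A1 stayed under 4.49 in both groups, and the summed level of the 8 markers was 34.1 to 35.0 on the vehicle arrays and 34.3 to 35.6 on the SAHA arrays. Of 88 protease genes 14 rose (8 without SAHA replicate 2) and 12 fell. Of 33 protease inhibitors 10 rose and 4 fell (2 without SAHA replicate 1, SAHA replicate 2 or vehicle replicate 2). SERPINI1 (neuroserpin) stood at 7.73 and 7.52 with vehicle and 9.96 and 9.9 with SAHA (2.3 ± 0.098), SERPINB9, an inhibitor of granzyme B, rose by 1.76 ± 0.11 and SERPINE2, which inhibits thrombin and urokinase, by 0.97 ± 0.082, whereas SERPINH1, the collagen chaperone, fell by 1.92. The largest adjusted p was 0.00489 (COL1A1, limma).

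At the cell surface, receptors for growth factors and cytokines changed in both directions. Of 35 receptor tyrosine kinases 9 rose and 12 fell. EPHB3, an ephrin receptor of the crypt, stood at 6.81 and 6.69 with vehicle and 8.08 and 8.14 with SAHA (1.36 ± 0.089). MET, the receptor of hepatocyte growth factor, stood at 11.63 and 11.46 with vehicle and 10.29 and 10.11 with SAHA (-1.35 ± 0.11). RET was at 1.14 and ROR1 at 1.62, with means over 3 probe sets each of 0.63 and 0.96, and ERBB2 was at -1.22, with 1 of 2 probe sets of this sign and a mean of -0.51. Of 44 cytokine and TGF-beta family receptors 13 rose and 16 fell. BAMBI, a decoy receptor for TGF-beta and BMP, stood at 7.42 and 7.54 with vehicle and 9.11 and 9.21 with SAHA (1.69 ± 0.090). IL27RA stood at 8.52 and 8.65 with vehicle and 5.47 and 5.69 with SAHA (-3.0 ± 0.10). OSMR, the oncostatin M receptor chain, fell by 1.5, IL15RA fell by 1.53, IL6R fell by 1.37 and IL4R fell by 1.26, and IL1RAP, the shared chain of interleukin-1 receptors, rose by 1.55. These calls had adjusted p of at most 0.000201 (RET, limma).

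Of 22 TNF receptor family genes 6 rose (27.3%) and 7 fell (31.8%), against 22.1% and 25.2% of all genes. The death receptor FAS stood at 7.88 and 8.04 with vehicle and 5.94 and 5.8 with SAHA (-2.09 ± 0.20). NGFR, the p75 neurotrophin receptor, stood at 5.46 and 5.39 with vehicle and 7.21 and 7.37 with SAHA (1.86 ± 0.087). TNFRSF1A, the main TNF receptor, fell by 1.2, and TNFRSF11A (RANK) rose by 1.39. LTBR, the lymphotoxin receptor, was at -2.51, with 2 of 3 probe sets of this sign and a mean of -0.86. Of 116 G protein-coupled receptors 16 rose (13.8%) and 26 fell (22.4%), both under the shares of all genes, with CXCR4 the largest rise. NTSR1, a receptor of a gut peptide, stood at 8.95 and 8.54 with vehicle and 5.77 and 5.99 with SAHA (-2.87 ± 0.18), the adhesion receptor ADGRG6 fell by 1.91 and the Wnt receptor FZD4 rose by 0.96. Of 42 Notch, plexin, neuropilin, ephrin and LRP genes 13 rose (31.0%) and 10 fell (23.8%). The rises numbered 7 without SAHA replicate 2 or without vehicle replicate 2, and the falls 6 without SAHA replicate 1. EFNB2, an arterial ephrin ligand, was at 1.29 and EFNA2 at -2.02. For the calls named, adjusted p was up to 0.000134 (TNFRSF1A, limma).

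Adhesion genes changed in both directions. Of 27 cadherins and protocadherins 3 rose and 7 fell (25.9%, close to the 25.2% of all genes), with 6 rises where a gene's probe sets were averaged. CDH1 (E-cadherin), the main epithelial cadherin, stood at 9.41 and 9.4 with vehicle and 10.26 and 10.11 with SAHA (0.78 ± 0.11), whereas the desmosomal cadherins DSC2, at 9.33 and 9.23 with vehicle and 7.04 and 6.94 with SAHA (-2.29 ± 0.10), and DSC3 (-1.79, to 4.47) fell. Of 65 immunoglobulin-type and other adhesion molecules 15 rose (23.1%, against 22.1% of all genes) and 8 fell, or 5 without SAHA replicate 1. NCAM1, a neural adhesion molecule, stood at 3.73 and 3.76 with vehicle and 6.29 and 6.41 with SAHA (2.6 ± 0.12), from near background, and CNTN1 (contactin 1) at 5.13 and 5.17 with vehicle and 7.75 and 7.37 with SAHA (2.41 ± 0.13, mean over 3 probe sets 1.52). CD44, the hyaluronan receptor, fell by 1.32 ± 0.12 with all 9 of its probe sets lower, and SDC1 (syndecan 1), a heparan sulfate proteoglycan of epithelia, fell by 1.08. Of 20 integrins 1 rose and 3 fell. ITGB8, which activates TGF-beta, fell by 1.45 to 3.71. Of 24 claudins and tight junction proteins 2 rose and 6 fell, with MARVELD1 at -1.96, MARVELD3 at -1.28 and MARVELD2 (tricellulin) at -0.96. Of 26 tetraspanins 6 rose and 3 fell (0 without vehicle replicate 1, 1 without vehicle replicate 2 or without the filter on low levels), with TSPAN13 at 1.43. Adjusted p was at most 0.000683 (CDH1, limma).

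**Figure D4:**
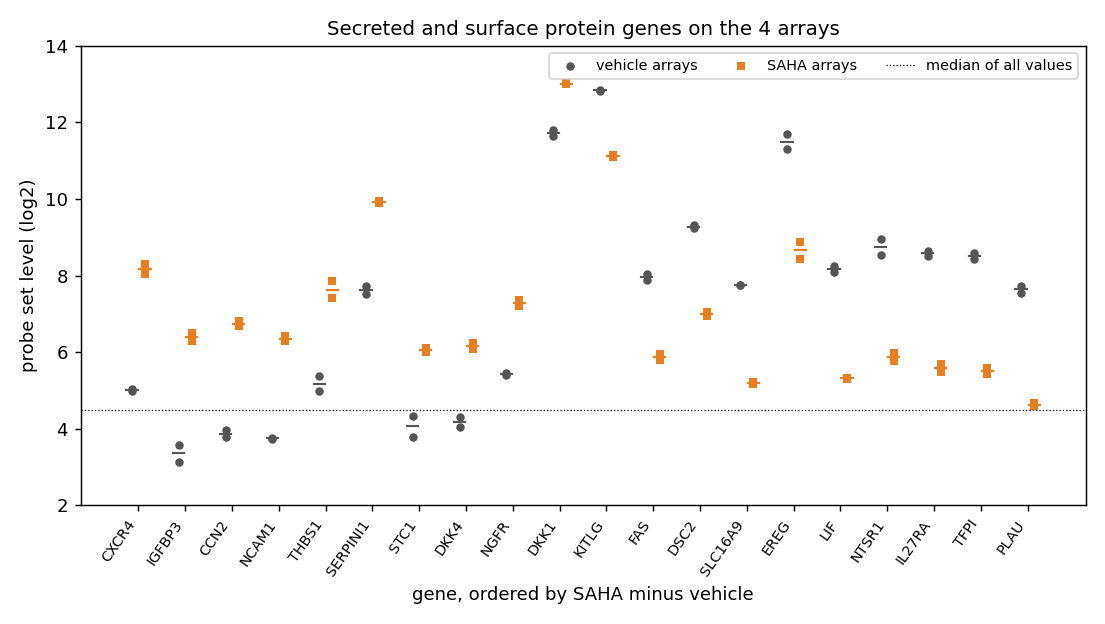
Log2 levels of 20 genes for secreted and surface proteins on the 2 vehicle arrays (circles) and the 2 SAHA arrays (squares), with group means as short lines, ordered from the largest rise to the largest fall. The dotted line is 4.49, the median of all values. The rises of IGFBP3, CCN2, NCAM1, STC1 and DKK4 start under the line, while DKK1 and KITLG change among abundant transcripts.

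The proton pump that acidifies lysosomes and other vesicles had mostly rises. Of 19 V-type ATPase subunits and accessory proteins 14 rose and 1 fell, with a median difference of 0.56. ATP6V1D stood at 10.28 and 10.32 with vehicle and 11.71 and 11.79 with SAHA (1.45 ± 0.081). ATP6V0D1 stood at 9.55 and 9.7 with vehicle and 10.53 and 10.68 with SAHA (0.98 ± 0.10). ATP6V1A, the catalytic subunit, rose by 0.82 ± 0.10, its partner ATP6V1B2 by 0.81 ± 0.089 and ATP6V1H by 0.59 ± 0.077. The falling member was ATP6V1E2 (-0.58 ± 0.093), a paralogue of ATP6V1E1, which rose by 0.58. ATP6V1G1 (0.072, adjusted p = 0.525) and ATP6AP1 (-0.035, adjusted p = 0.818) were not called. Members of both the cytosolic V1 and the membrane V0 sector rose. The largest adjusted p was 0.00164 (ATP6V1E2, limma).

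Carriers of small molecules were near the background as a whole, with 54 of 255 SLC genes higher (21.2%) and 71 lower (27.8%). Of the 6 tested monocarboxylate carriers (SLC16) 3 fell and 1 rose: SLC16A9 stood at 7.74 and 7.75 with vehicle and 5.15 and 5.21 with SAHA (-2.56 ± 0.078). SLC16A14 stood at 8.49 and 8.42 with vehicle and 5.27 and 5.71 with SAHA (-2.97 ± 0.15), and SLC16A10, an aromatic amino acid carrier, rose by 1.15. The third fall, SLC16A5, was at -2.49, or -0.78 without probe sets named _x_at or _s_at. Of 8 amino acid carriers of the SLC7 subfamily 6 fell and 2 rose, with the cystine importer SLC7A11 at 8.9 and 8.79 with vehicle and 6.93 and 7.02 with SAHA (-1.87 ± 0.13). Of 8 zinc exporters (SLC30) 4 rose (2 without vehicle replicate 1 or 2) and 0 fell, SLC30A1 by 0.80 ± 0.10, and of 9 sugar carriers (SLC2) 3 rose and 0 fell, SLC2A13, an inositol carrier, by 1.15 ± 0.14. The large mitochondrial subfamily SLC25 had 11 of 40 higher and 8 lower, with SLC25A44, a carrier of branched-chain amino acids, at 8.63 and 8.68 with vehicle and 10.12 and 10.09 with SAHA (1.45 ± 0.082). Of 25 ABC transporters 8 rose and 6 fell. ABCB1, the drug efflux pump P-glycoprotein, stood at 4.91 and 5.2 with vehicle and 6.98 and 7.2 with SAHA (2.03 ± 0.17). ABCC2, another efflux pump, stood at 7.22 and 7.67 with vehicle and 4.68 and 4.67 with SAHA (-2.77 ± 0.20). These calls had adjusted p of at most 0.000524 (SLC30A1, limma).

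Ion channels and antigen-presenting molecules completed the surface proteins. Of 37 potassium channels 5 rose (3 without the filter on low levels or without SAHA replicate 1, SAHA replicate 2 or vehicle replicate 1) and 5 fell, with KCNN4, a calcium-activated channel of epithelia, at 7.03 and 7.5 with vehicle and 4.57 and 4.83 with SAHA (-2.56 ± 0.23) and KCNS3 at 1.53. Of 57 calcium, sodium, chloride and TRP channels 14 rose and 14 fell (9 and 9 without vehicle replicate 2), among them the intracellular calcium channels ITPR2 (1.5 ± 0.092) and ITPR1 (1.3 ± 0.090), which rose. SCNN1A, the alpha subunit of the epithelial sodium channel, was at -2.38, with a mean over 3 probe sets of -0.85. Of 15 HLA genes 8 rose and 0 fell, with a median of 0.38. The count of rises was 3 without vehicle replicate 1, 4 without SAHA replicate 2 and 5 without vehicle replicate 2, and it was 5 without the filter on low levels and 3 of 6 tested genes without probe sets named _x_at or _s_at. HLA-DRA, of class II, stood at 4.79 and 5.08 with vehicle and 5.86 and 6.05 with SAHA (1.02 ± 0.13), HLA-DMB, which loads peptide onto class II, rose by 0.90 ± 0.10, while the abundant HLA-B (0.11) and HLA-C (0.031) were not called (adjusted p = 0.412 and 0.812). HLA genes are near-identical in places, as are metallothionein and histone genes, so probe sets may not tell them apart. For the calls named, adjusted p was up to 0.000524 (HLA-DRA, limma).

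Inside the cell, the machinery of gene expression fell more than it rose. Of its 622 tested genes 101 rose (16.2%) and 209 fell (33.6%), with a median of -0.084. Mitochondrial ribosomal proteins fell in 35 of 75 cases and rose in 5 (median -0.24), in contrast to the 58 cytosolic ribosomal proteins, of which 1 rose and 2 fell (median -0.029). The 35 falls became 16 without vehicle replicate 2, 18 without SAHA replicate 1, 23 without the filter on low levels and 16 of 40 tested genes without probe sets named _x_at or _s_at. MRPL15 stood at 10.63 and 10.64 with vehicle and 9.71 and 9.87 with SAHA (-0.85 ± 0.087). MRPL54 stood at 9.29 and 9.5 with vehicle and 8.41 and 8.44 with SAHA (-0.97 ± 0.11). Of 44 DEAD and DEAH box RNA helicases 23 fell and 7 rose (3 without vehicle replicate 1, without vehicle replicate 2, without the filter on low levels or with only the 4 arrays compared), with DDX17 at 11.42 and 11.45 with vehicle and 10.3 and 10.4 with SAHA (-1.08 ± 0.082, 5 of 5 probe sets lower). Of 85 SR, hnRNP, SF3, PRPF and RBM splicing proteins 37 fell and 9 rose, with HNRNPUL1 at -1.16 ± 0.080 and the splicing factor PRPF18 at 1.12 ± 0.079. Of 33 aminoacyl-tRNA synthetases, which charge tRNAs, 16 fell and 5 rose, with the mitochondrial enzymes HARS2 at -0.95 ± 0.084 and SARS2 at -1.17 ± 0.14. Translation factors were balanced, with 9 of 48 higher and 9 lower. Most of these changes were under 2-fold: at least 2-fold falls numbered 0 among mitochondrial ribosomal proteins and 2 among the helicases. Adjusted p was at most 0.000338 (SARS2, limma).

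These 622 genes include the chromatin genes, whose families differed. Of 136 remodelers and histone modifiers 61 fell (44.9%) and 16 rose (11.8%), with a median of -0.24, and 16 of the falls were at least 2-fold. SETD1B, a histone H3 lysine 4 methyltransferase, stood at 8.66 and 8.85 with vehicle and 6.33 and 6.43 with SAHA (-2.38 ± 0.096). JADE2, a subunit of a histone acetyltransferase complex, was at -3.08 and TET3, which oxidizes methylcytosine, at -2.55, with means over 2 probe sets each of -1.96 and -1.7. SMARCA2 (BRM), an ATPase of SWI/SNF remodelers, stood at 6.3 and 6.27 with vehicle and 7.91 and 7.76 with SAHA (1.55 ± 0.13), and KDM1B, a lysine demethylase, rose by 1.17 ± 0.14. In contrast, 29 of 94 RNA polymerase, Mediator and general transcription factor subunits rose (19 without vehicle replicate 1) and 21 fell, with GTF2B (TFIIB) at 9.86 and 9.89 with vehicle and 11.23 and 11.28 with SAHA (1.38 ± 0.091) and MED26 at 1.19 ± 0.096. Of 31 histone genes 14 rose and 1 fell, H2BC5 by 1.58 ± 0.12 and H2AC6 by 1.52 ± 0.13, and MACROH2A2, a variant of silenced chromatin, fell by 1.65 ± 0.13. Replication-dependent histone transcripts mostly lack the poly(A) tail that array labelling commonly relies on. The largest adjusted p was 0.000327 (KDM1B, limma).

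All 11 tested HDAC genes, which include the drug's own targets, differed by less than 2-fold. HDAC1 stood at 11.89 and 11.97 with vehicle and 12.07 and 12.03 with SAHA (0.12 ± 0.088, adjusted p = 0.306), HDAC2 was at 0.020 ± 0.15 (adjusted p = 0.929) and HDAC6, the tubulin deacetylase, at -0.27 ± 0.14 (adjusted p = 0.175). HDAC3, the catalytic subunit of the NCoR and SMRT corepressors, stood at 9.18 and 9.34 with vehicle and 9.89 and 10.01 with SAHA (0.69 ± 0.10, adjusted p = 0.00113). HDAC4 fell by 0.41, whereas HDAC9 (-0.11) and HDAC10 (-0.047) were not called. HDAC5 (0.32, adjusted p = 0.030), HDAC7 (-0.61, adjusted p = 0.0131), HDAC8 (-0.28, adjusted p = 0.0432) and HDAC11 (0.36, adjusted p = 0.0372) were called, but each lost its call without at least 1 of the arrays: without vehicle replicate 1 adjusted p was 0.169, 0.0553, 0.139 and 0.123 in that order. Among the sirtuins, deacetylases that need NAD and that hydroxamates do not inhibit, SIRT4 stood at 4.45 and 4.44 with vehicle and 6.29 and 6.56 with SAHA (1.98 ± 0.14), rising from near background, SIRT7 rose by 0.73 ± 0.097, and SIRT1 was not called (-0.098, adjusted p = 0.675).

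**Figure D5:**
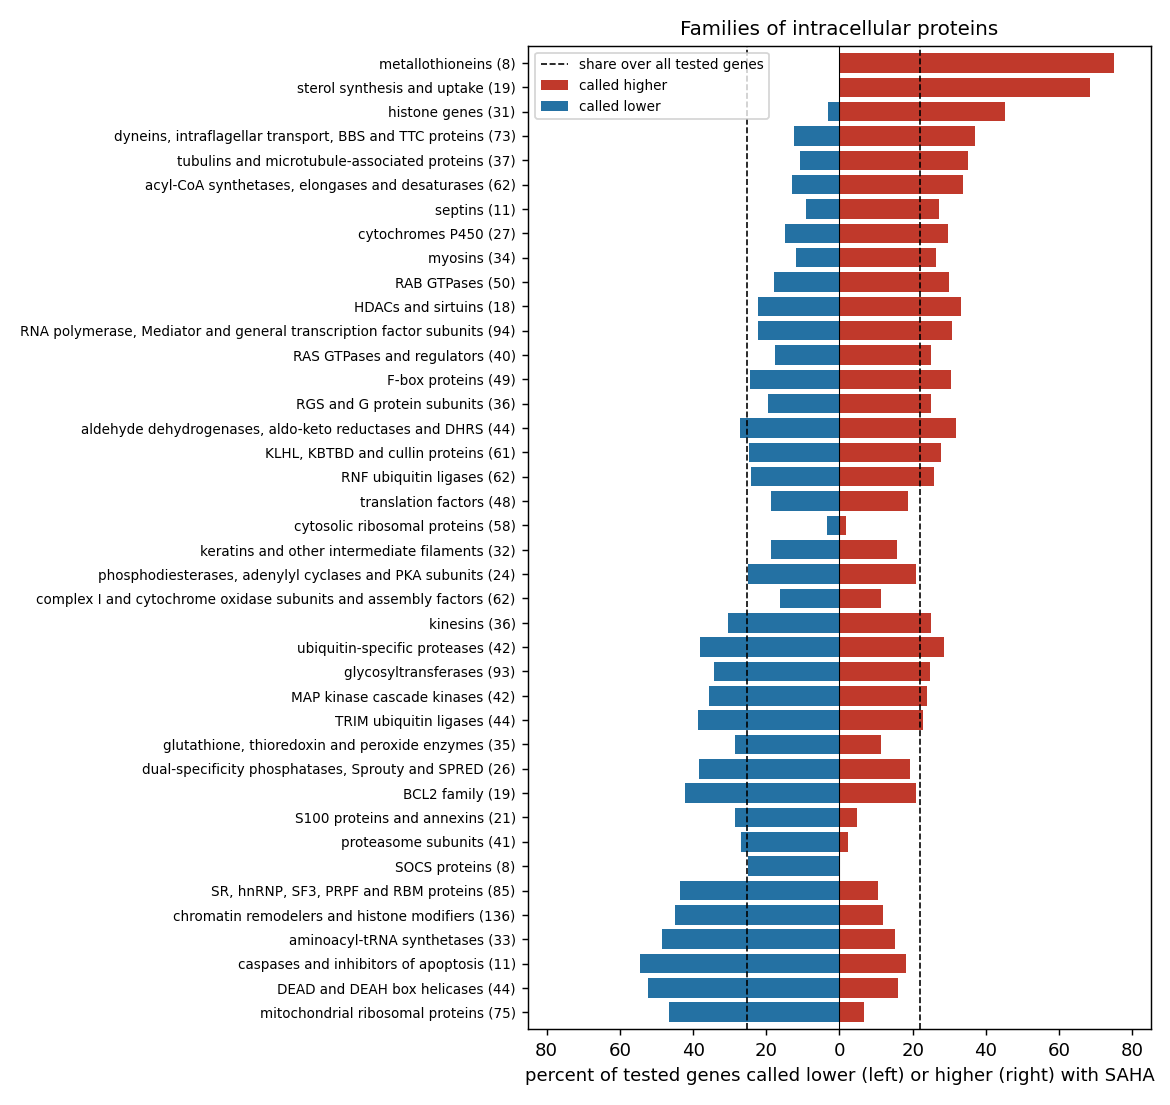
Bars give the percent of the tested genes in each intracellular family shown (number in parentheses) that were called higher (red, right) or lower (blue, left) with SAHA, and dashed lines mark 22.1% and 25.2%, the shares over all tested genes. Families are ordered by percent higher minus percent lower. Metallothioneins, sterol synthesis and histone genes lie at the top with 75%, 68.4% and 45.2% called higher. Mitochondrial ribosomal proteins lie at the bottom with 46.7% called lower. Larger shares were called lower among caspases and inhibitors of apoptosis (54.5%), DEAD and DEAH box helicases (52.3%) and aminoacyl-tRNA synthetases (48.5%).

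Signalling families were closer to the background, with 78 of 332 genes higher (23.5%) and 90 lower (27.1%). Of 42 kinases of the MAP kinase cascades 10 rose and 15 fell. MAP3K3 rose by 1.1 ± 0.080 and MAPK8 (JNK1) by 0.84 ± 0.081, whereas MAPK13 (p38 delta) fell by 1.48 ± 0.10 and MAP3K20 (ZAK) fell by 1.06 ± 0.083. Among feedback inhibitors, 5 of 26 rose and 10 fell. DUSP10, a phosphatase of p38 and JNK, stood at 5.38 and 4.96 with vehicle and 7.2 and 7.27 with SAHA (2.06 ± 0.13), and SPRY2 and SPRY4, inhibitors of receptor tyrosine kinase signalling, fell by 1.12 and 0.87. SOCS6 stood at 8.89 and 8.62 with vehicle and 6.69 and 6.26 with SAHA (-2.28 ± 0.21), and of 8 SOCS genes 2 fell and 0 rose. Of 50 RAB GTPases of vesicle traffic 15 rose and 9 fell. These calls had adjusted p of at most 0.000989 (SPRY4, limma).

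Genes of apoptosis changed in both camps. Of 19 BCL2 family genes 4 rose (21.1%, near the 22.1% of all genes) and 8 fell (42.1%, against 25.2%). The BH3-only activator BCL2L11 (BIM) stood at 7.7 and 7.55 with vehicle and 9.28 and 9.32 with SAHA (1.67 ± 0.10), with all 7 of its probe sets higher, and the survival genes BCL2L2 (BCL-W) at -1.16 ± 0.086 and BCL2L1 (BCL-XL) at -1.13 ± 0.24 fell, the latter with a mean over 3 probe sets of -0.69. The survival gene MCL1 rose by 0.66 ± 0.082, and the BH3-only BID fell by 1.06 (at -1.74 from another probe set without those named _x_at or _s_at). Of 11 caspases and inhibitors of apoptosis 6 fell (54.5%) and 2 rose (18.2%). CASP8, the initiator caspase of death receptors, was at -1.08 (mean over 2 probe sets -0.69), CASP6 at -0.78 and the inhibitor XIAP at -0.75, all 3 lower. For the calls named, adjusted p was up to 0.00666 (XIAP, limma).

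Genes of the cytoskeletal families, as grouped by symbol, leaned to rises, with 67 of 244 higher (27.5%) and 41 lower (16.8%). Of 37 tubulins and microtubule-associated proteins 13 rose and 4 fell, and the falls numbered 1 to 2 with any 1 array left out, 1 without the filter, with only the 4 arrays or with equal ribosomal protein medians, and 7 with the replicate number as a block. MAP2, a microtubule-binding protein of neurons, stood at 6.59 and 6.4 with vehicle and 9.04 and 8.97 with SAHA (2.51 ± 0.11). TPPP, a tubulin polymerization-promoting protein, stood at 7.03 and 6.99 with vehicle and 8.98 and 8.89 with SAHA (1.92 ± 0.087). MAP1LC3B, the autophagosome protein LC3B, rose by 1.61 ± 0.094. Of 73 dynein, intraflagellar transport, BBS and TTC genes 27 rose and 9 fell, with IFT57 at 1.04 ± 0.11. Keratins and other intermediate filament genes had 5 of 32 higher and 6 lower, with EPPK1 (epiplakin) at 3.18 and a mean over 5 probe sets of 1.87. S100 proteins and annexins fell in 6 of 21 cases (11 where a gene's probe sets were averaged) and rose in 1, with ANXA1 at -0.60 and S100A16 at -0.95.

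In the ubiquitin system 71 of 299 genes rose (23.7%) and 86 fell (28.8%), near the 22.1% and 25.2% of all genes. TRIM ligases fell in 17 of 44 cases, 10 of them at least 2-fold, and rose in 10. TRIM56, a regulator of innate immunity, stood at 8.2 and 7.92 with vehicle and 5.72 and 5.81 with SAHA (-2.3 ± 0.11). TRIM7 stood at 9.16 and 9.83 with vehicle and 7.13 and 7.36 with SAHA (-2.25 ± 0.21). RNF43, which removes Wnt receptors from the surface, fell by 1.72 ± 0.12, and the F-box protein FBXO6, which binds glycoproteins, fell by 1.82 ± 0.088. Of 41 proteasome subunits 11 fell (19 with an intensity trend and robust prior, 17 with the replicate number as a block) and 1 rose. That 1 was PSMB9, an immunoproteasome subunit, at 7.11 and 7.48 with vehicle and 8.22 and 8.61 with SAHA (1.12 ± 0.20), and PSMB5, the constitutive chymotrypsin-like subunit, fell by 0.84 ± 0.097. Adjusted p was at most 0.00251 (PSMB9, limma).

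In the metabolic families 95 of 349 genes rose (27.2%) and 76 fell (21.8%), with a median of -0.023. Sterol synthesis rose in 13 of 19 cases with 0 falls and a median of 0.59. INSIG1, which holds the sterol sensor in the endoplasmic reticulum, stood at 9.25 and 8.93 with vehicle and 11.3 and 10.98 with SAHA (2.05 ± 0.14). HMGCS1, an early enzyme of the pathway, stood at 7.98 and 7.83 with vehicle and 8.94 and 8.82 with SAHA (0.98 ± 0.12). Metallothioneins, small zinc-binding proteins, rose in 6 of 8 cases with 0 falls, MT1F by 0.63 ± 0.077 from a level of 12.49, beside the zinc exporters named above. The count was 3 without vehicle replicate 1 and 4 without SAHA replicate 1, and without probe sets named _x_at or _s_at 2 metallothioneins remained to be tested and 0 were called. Of 62 acyl-CoA synthetase, elongase, desaturase and related lipid genes 21 rose and 8 fell, with ELOVL3 at 6.12 and 6.47 with vehicle and 8.14 and 8.35 with SAHA (1.95 ± 0.14) and ACSL5 at -1.44. In the reductase families AKR1C3, which reduces steroids and prostaglandins, stood at 4.31 and 4.35 with vehicle and 6.88 and 6.72 with SAHA (2.47 ± 0.096). DHRS3, a retinal reductase, stood at 9.18 and 9.26 with vehicle and 6.3 and 6.63 with SAHA (-2.76 ± 0.12). CYP24A1, which breaks down vitamin D, stood at 9.34 and 9.41 with vehicle and 5.66 and 5.92 with SAHA (-3.58 ± 0.14), and its regulator the vitamin D receptor VDR was at 1.0 (mean over 4 probe sets 0.57). The largest adjusted p was 0.000528 (HMGCS1, limma).

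Among noncoding transcripts falls outnumbered rises, as they did over all genes (25.2% against 22.1%). Of 713 genes annotated as long noncoding RNAs 59 rose (8.27%, with 39 rises without vehicle replicate 2) and 134 fell (18.8%), against 23.1% and 25.9% of 12422 protein-coding genes. Falls of at least 2-fold numbered 54 and rises of that size 9. Shares also differ with level, at 9.11% higher and 13.0% lower in the lowest quintile of all genes. The comparison with protein-coding genes was not matched for level. LINC00857 stood at 6.01 and 5.78 with vehicle and 3.83 and 3.59 with SAHA (-2.19 ± 0.17), LINC00513 at 7.39 and 7.36 with vehicle and 5.34 and 5.61 with SAHA (-1.9 ± 0.17). LINC02901 stood at 5.6 and 5.42 with vehicle and 6.94 and 7.19 with SAHA (1.56 ± 0.12). These calls had adjusted p of at most 0.000107 (LINC00513, limma).

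Where SAHA differed from the other inhibitors was tested in the same fit, with the caution that the doses differ (2 µM of SAHA against 20 nM of the others) and that all 3 share the vehicle arrays. Against Largazole 3 of 13381 genes were called, 0.0224%, all lower with SAHA and 1 of them at least 2-fold (0.00747%). KISS1R, the kisspeptin receptor, was at 7.36 and 7.57 with SAHA, 8.43 and 8.55 with Largazole and 7.96 and 8.08 with vehicle, a SAHA minus Largazole difference of -1.03 ± 0.10 (adjusted p = 0.0386, limma). TNFAIP2 differed by -0.93 ± 0.095 and PABPN1, the nuclear poly(A)-binding protein, by -0.88 ± 0.084 (adjusted p = 0.0386 and 0.0356). With the replicate number as a block 0 of the 3 were called (adjusted p = 0.0606 for each). The count depended on the settings, which gave 0 to 57 genes, and it was 0 with any of the arrays left out. At an unadjusted p under 0.05 it was 1372.

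Against FK228 823 genes were called, or 6.15%, with 408 higher (3.05%) and 415 lower (3.1%) with SAHA, and 30 and 25 of them differed at least 2-fold. Among those higher with SAHA, TGIF1, a repressor of SMAD-dependent transcription, was at 8.41 and 8.43 with SAHA, 6.35 and 6.49 with FK228 and 10.34 and 10.43 with vehicle, a difference of 2.0 ± 0.089. NRIP1 differed by 1.97 ± 0.13, PHLDA1, a growth factor-induced gene, by 1.91 ± 0.096 and ZC3H12C, a zinc finger RNA-binding gene, by 1.43 ± 0.12, so these falls were smaller with SAHA than with FK228. Among those lower with SAHA, IRF7 was at 7.83 and 8.07 with SAHA, 9.46 and 9.66 with FK228 and 5.93 and 5.9 with vehicle, a difference of -1.61 ± 0.12. SYT11 differed by -2.12 ± 0.13 and the noncoding CDKN2A-AS1 by -2.0 ± 0.17. Adjusted p of the SAHA minus FK228 differences was at most 0.00301 (ZC3H12C) (limma). Against vehicle the log2 difference of TGIF1 was -1.96 with SAHA and -3.97 with FK228, and that of IRF7 was 2.04 and 3.65, but dropping those named _x_at or _s_at put another probe set in place for TGIF1, at -0.13 with SAHA and with a SAHA minus FK228 difference of 0.034 (adjusted p = 0.888). The count moved between 65 and 1594 over the settings, and leaving out any 1 of the 8 arrays gave 94 to 540.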

How the data were processed

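Biotin-labelled cRNA of HCT116 cells was measured on Affymetrix U133 2.0 arrays, per the labels, with 2 arrays in each of 4 groups. The deposited values are log2 levels of 54613 probe sets. Of tools, affy, RMA and limma are listed in the submitters' processing notes, without roles or versions. The scaling of the authors' log2 values and their genome build are not given in the sources used here. Scanner intensities were not used here, and the number of arrays limits the precision.

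GEO's platform annotation gave 1 symbol to 41091 probe sets, several to 1801 and none to 11721, and only the first were named; 41037 of them matched RefSeq by gene ID. All 8 arrays were fitted with limma 3.58.1 in R 4.3.3 (1 coefficient per group, eBayes, 4 residual and 3.69 prior degrees of freedom), and p-values were adjusted (Benjamini-Hochberg) over 28985 probe sets that passed the filter. The median 95% half-width of a gene's difference was 0.24. On simulated data for the SAHA and vehicle comparison, over the 28985 probe sets, 0 of 50 changes of 1.2-fold, 23 of 50 of 1.5-fold, 47 of 50 of 2-fold and 50 of 50 of 4-fold were recovered, with 5 false calls among 125. No other probe set was changed in the simulation, whereas 12666 were called in the real comparison. The adjustment was therefore stricter in the simulation, and its recovery rates do not describe the real comparison.

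Families were matched by symbol, and the patterns were corrected after the files were seen, for genes caught by name only. Genes were named as the 11th to 25th largest rises and falls, up to 3 rises and 3 falls of a family, genes that crossed the signal range, abundant genes changed at least 2-fold, genes that differed between compounds, and a panel of the HDAC genes, CDKN1A, DHRS2 and PDE4B. Of 291 genes named, 38 lie outside this rule and the marker lists and were chosen after their values were seen, as were the EREG and ZBTB2 promoters. The members, families and lists were chosen with earlier results of these data known. A planned gene of the panel and a family of signalling genes are not reported here. Motifs were counted in the RefSeq promoter table (GRCh38.p14), which held 10762 of the tested genes. Alternatives were other filters, priors, scalings, probe set choices, sets of arrays and a replicate block.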

Additional observations from a re-analysis of the deposited data

How the results depend on the processing

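The counts against vehicle stayed within 1.5 times under all alternatives run, with 2288 to 3308 genes higher and 2482 to 3703 lower. The other scalings moved the median of all tested probe sets by 0.020 (equal ribosomal protein medians) and 0.0075 (further quantile normalization). The counts between compounds moved more, and the cause was not tested. Against Largazole, where 3 genes were called, the count was 0 without the filter, 0 with only the 4 arrays compared, 36 with the stricter filter, 57 with an intensity trend and robust prior, 6 with further quantile normalization, 7 without probe sets named _x_at or _s_at, 21 with a gene's probe sets averaged, and 0 to 0 with each array left out, while 1372 genes had an unadjusted p under 0.05. Against FK228, where 823 were called, the count was 319 without the filter, 1479 with the stricter filter, 1594 with the trend and robust prior, 65 with only the 4 arrays compared, and 94 to 540 with each array left out. A left-out array leaves a lone array in its group, which is assumed to vary like the other groups.

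Arrays are numbered 1 and 2 in each group, and with 2 numbers in a group the data do not settle whether they pair arrays. The deviations of SAHA and vehicle arrays correlated at 0.18 across probe sets (0.13 to 0.27 over all pairs of groups). With the replicate number as a block, 3308 genes were higher and 3703 lower than vehicle, 0 differed from Largazole and 1424 from FK228.

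Of 301 differences of named genes, 288 kept their side of the threshold under every alternative run and 278 also kept their direction. Of the 282 that were called, 270 kept both, and 10 of the 19 that were not called changed sign. ZMYND8 turned from -3.01 to 0.049 without probe sets named _x_at or _s_at. The array cannot place the size of changes that start or end near background.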
